A study of Mus musculus with 16 samples.

Results

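Genes that build or serve the primary cilium, together with the genes of nephronophthisis, were compared between Aqp11 knockout and wild-type mouse kidney. The set is a list of 37 named genes, chosen by name with earlier results of these data known. The rule itself holds no measured value. A gene was measured where the array has a probe set (a group of short probes for 1 transcript) annotated to that gene alone. This held for 32 of the 37, and all 32 were bright enough to test, among 12508 genes tested of 18193 with such a probe set. Anks6, Nek1, Rpgrip1l, Arl6 and Arl13b are not analysed here.

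The study measured whole kidneys of 16 littermates aged 7 days on Affymetrix Mouse Genome 430 2.0 arrays, with 1 kidney RNA and 1 array per animal. The 7 wild-type pups (Aqp11+/+, 3 males and 4 females) and the 9 knockout pups (Aqp11-/-, 5 males and 4 females) came from 5 crosses of heterozygous parents. The Aqp11 allele arose in a 129/SvEvBrd background and had been back-crossed to C57/BL6, and the strain label of every animal is C57BL/6J. No animal received a treatment according to the labels. Each array is named by the number in its label, such as 3-2. The first number runs from 1 to 5, with both genotypes under each. The labels do not say whether it marks the cross.

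The primary cilium is a single antenna-like organelle on most kidney epithelial cells, built on a basal body and thought to sense flow and signals in the tubule lumen. Its cargo is carried outward by kinesin-2 with the IFT-B complex and back by dynein-2 with the IFT-A complex, while the BBSome moves membrane proteins and the transition zone gates the base. Nephronophthisis is a recessive cystic kidney disease of childhood caused by defects in such proteins. Loss of Aqp11, a water channel of the endoplasmic reticulum of proximal tubule cells, gives mice cystic kidneys early in life.

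Most cilium genes had a slightly lower mean signal in knockout kidney, and few of the differences passed the test. Of the 32 genes, Wdr19, Ift172 and Glis2 fell and 0 rose at an adjusted p under 0.05 (limma, Benjamini-Hochberg over all 12508 genes), while 29 were not called. The share that fell was 9.38% of the genes in the list. Over all genes tested, 17.7% were called in either direction, 8.34% lower and 9.34% higher, so the share of cilium genes that fell was close to the background. The knockout mean was below the wild-type mean for 25 of the 32 genes (78.1%) and above it for 7, against 49.3% below among all genes. The median difference (knockout minus wild type) was -0.17 on the log2 scale, with a range of -0.38 to 0.28, beside a median of 0 for all genes.

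The differences were small relative to the precision of the arrays. At an unadjusted p under 0.05 (limma) 8 of the 32 genes were lower (25%) and 0 higher, where 13.8% of all genes were lower. In none of the 32 genes did the ranges of knockout and wild type stand apart, against 669 of all genes (5.35%) whose ranges did. The 95% interval of a gene's difference reached 0.21 to either side at the median over the list and 0.79 for the widest. In RNA of a whole organ, fewer cells of a type and less RNA per cell cannot be told apart.

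**Figure D1:**
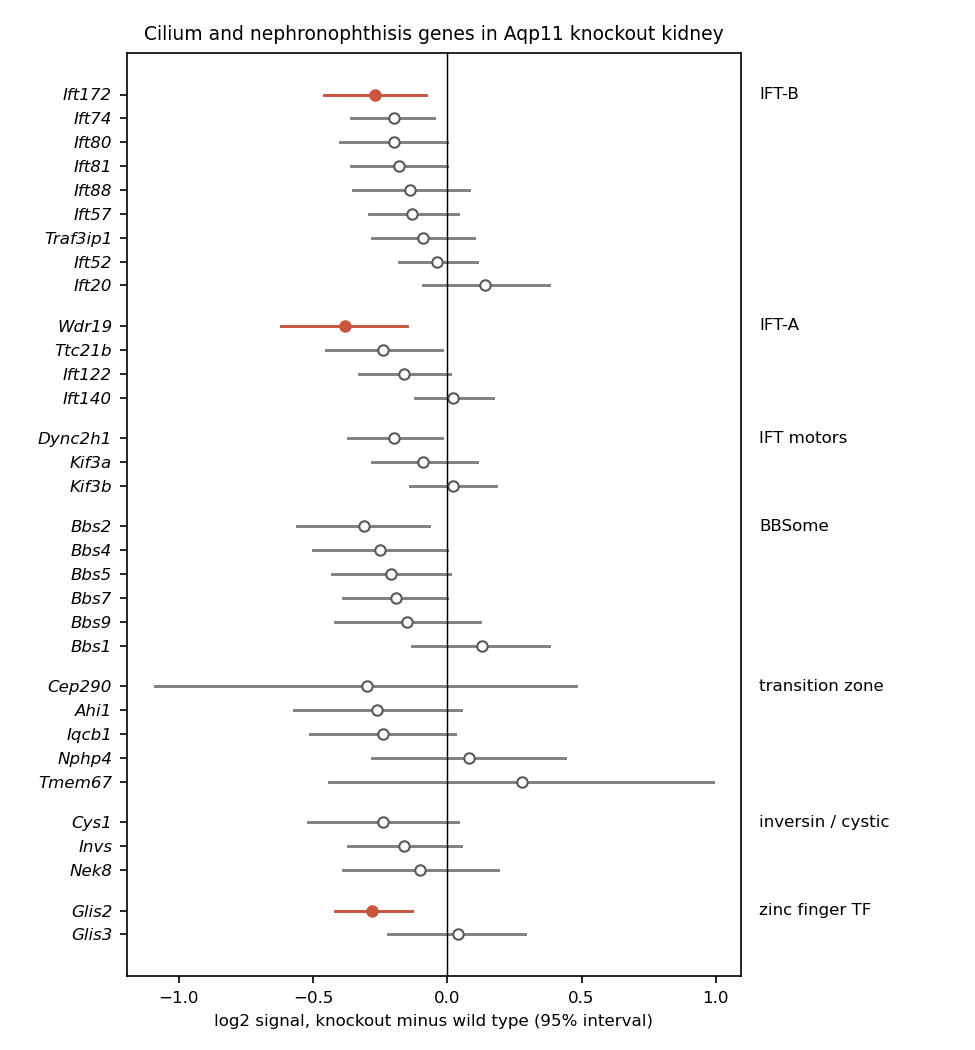
Difference in log2 signal (knockout minus wild type, horizontal axis) with its 95% interval for each of the 32 cilium and nephronophthisis genes, grouped by role. Wdr19, Ift172 and Glis2 passed the test, 25 of the 32 points lie below 0, and the intervals of Cep290 and Tmem67 are the widest.

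The labels were first checked on the deleted gene. Aqp11 signal was 7.87 ± 0.16 on the log2 scale (SD, n = 7; 7.72 to 8.11) in wild type and 2.94 ± 0.33 (SD, n = 9; 2.78 to 3.69) in knockout, where 2.78 is the floor set for dim values. It was at least 30.3-fold lower, with no overlap (limma adjusted p = 3.96e-14, exact two-sided permutation p = 8.74e-05, the smallest this design can give). Markers of the labelled tissue were present: the mean log2 signal of 9 proximal tubule genes was 11.03 to 11.24 on wild-type and 9.72 to 10.60 on knockout arrays, with 8 of the 9 lower. All 10 macrophage genes tested were higher, with mean log2 signals of 6.96 to 7.66 and 8.62 to 9.29. Array brightness as deposited (mean signal without the extreme 2% at either end) spanned 2.13-fold, at 111 to 211 in wild type and 124 to 236 in knockout (exact two-sided permutation p = 0.848), and the arrays were quantile normalized. With array brightness added as a term, 5 of the 32 genes were lower in place of 3. Of all 12508 genes, 1223 were then lower and 1362 higher, in place of 1043 and 1168.

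Among the 9 genes of IFT-B, the complex that carries tubulin and other cargo towards the tip, Ift172 fell, and 8 of the 9 had a negative difference, with a median of -0.14. Ift172 encodes the largest IFT-B protein, at the edge of the complex. Its log2 signal was 7.23, 7.38 and 7.54 on the lowest, median and highest wild-type array and 6.82, 7.10 and 7.46 on the knockout arrays. Thus 7 of the 9 knockout arrays were below the lowest wild-type array, and knockout array 5-2 lay within the wild-type range near its top. The means were 7.36 ± 0.11 (SD, n = 7) and 7.09 ± 0.20 (SD, n = 9), a difference of -0.27 (SE 0.0908, 95% interval -0.46 to -0.08; 1.21-fold lower; limma adjusted p = 0.0422). The exact two-sided permutation p of this gene alone was 0.00743. The call was near the threshold: without any single one of wild-type arrays 1-1, 2-1, 2-2, 4-1 and 5-1 or knockout arrays 1-2, 2-3, 2-4, 3-2, 3-3 and 4-4 the limma adjusted p was 0.0501 to 0.0861.

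Other IFT-B genes had the same sign and missed the threshold. Ift74, whose protein pairs with Ift81 to bind tubulin, had log2 signals of 8.74, 8.90 and 8.93 (lowest, median, highest) in wild type and 8.41, 8.68 and 8.99 in knockout. Its difference was -0.20 (SE 0.0736; limma adjusted p = 0.0632), with 6 of 9 knockout arrays below every wild-type array and array 4-4 above every one. Without knockout array 4-4 the limma adjusted p was 0.0168, within a range of 0.0168 to 1 over all alternatives run. With the first number of the label as a replicate block the limma adjusted p of Ift74 was 0.027. Ift81 had a difference of -0.18 (limma adjusted p = 0.183), and 7 of the 9 knockout arrays were below the lowest wild-type array. Ift80, a component mutated in a skeletal ciliopathy, had a difference of -0.20 (limma adjusted p = 0.17).

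The remaining IFT-B genes were closer to 0. Ift88, whose mutation gives the Oak Ridge polycystic kidney mouse, had a difference of -0.14 (95% interval -0.35 to 0.08). Ift57 had -0.13, Traf3ip1, which links IFT to microtubules, -0.09, and Ift52, a core subunit, -0.04. Ift20, which also sits at the Golgi and brings membrane proteins to the cilium, had 0.14 (95% interval -0.09 to 0.38) and was above the wild-type mean on 7 of 9 knockout arrays. None of these 5 passed the limma test, with adjusted p between 0.316 (Ift57) and 0.806 (Ift52).

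Of the 4 IFT-A genes, whose proteins carry cargo back to the base, Wdr19 fell and 3 had a negative difference, with a median of -0.20. Wdr19 encodes a core subunit that is mutated in nephronophthisis and skeletal ciliopathies. Its log2 signal was 6.80, 6.91 and 7.20 on the lowest, median and highest wild-type array and 6.25, 6.61 and 7.04 on the knockout arrays. Of the 9 knockout arrays, 7 were below every wild-type array, with array 2-3 the lowest and 3-4 the highest. The means were 6.98 ± 0.17 (SD, n = 7) and 6.60 ± 0.25 (SD, n = 9), a difference of -0.38 (SE 0.113, 95% interval -0.62 to -0.15; 1.3-fold lower; limma adjusted p = 0.0215). The exact two-sided permutation p was 0.00533. Without wild-type array 4-1 the limma adjusted p was 0.053, within a range of 0.00609 to 0.576 over all alternatives run.

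The other IFT-A genes were not called. Ttc21b, a peripheral subunit also mutated in nephronophthisis, had log2 signals of 7.37, 7.62 and 7.70 in wild type and 6.94, 7.35 and 7.68 in knockout. Its difference was -0.24 (95% interval -0.45 to -0.02; limma adjusted p = 0.123), and 5 of the 9 knockout arrays were below every wild-type array. Ift122 had -0.16 (limma adjusted p = 0.195). Ift140, a further core subunit mutated in nephronophthisis with skeletal defects, had 0.02 (95% interval -0.12 to 0.17), with knockout arrays at 7.48 to 7.73 and wild-type arrays at 7.38 to 7.76.

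The 3 motor genes were not called, with a median of -0.09. Dync2h1, the heavy chain of dynein-2, was below the wild-type mean on all 9 knockout arrays, the only gene of the 32 for which this held. Its log2 signal was 7.34, 7.63 and 7.77 (lowest, median, highest) in wild type and 7.19, 7.40 and 7.58 in knockout. The difference was -0.20 (SE 0.0841; limma adjusted p = 0.116), and 4 of the 7 wild-type arrays were above every knockout array. The kinesin-2 motor subunits were nearer 0, Kif3a at -0.09 (95% interval -0.28 to 0.11) and Kif3b at 0.02 (95% interval -0.14 to 0.18).

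**Figure D2:**
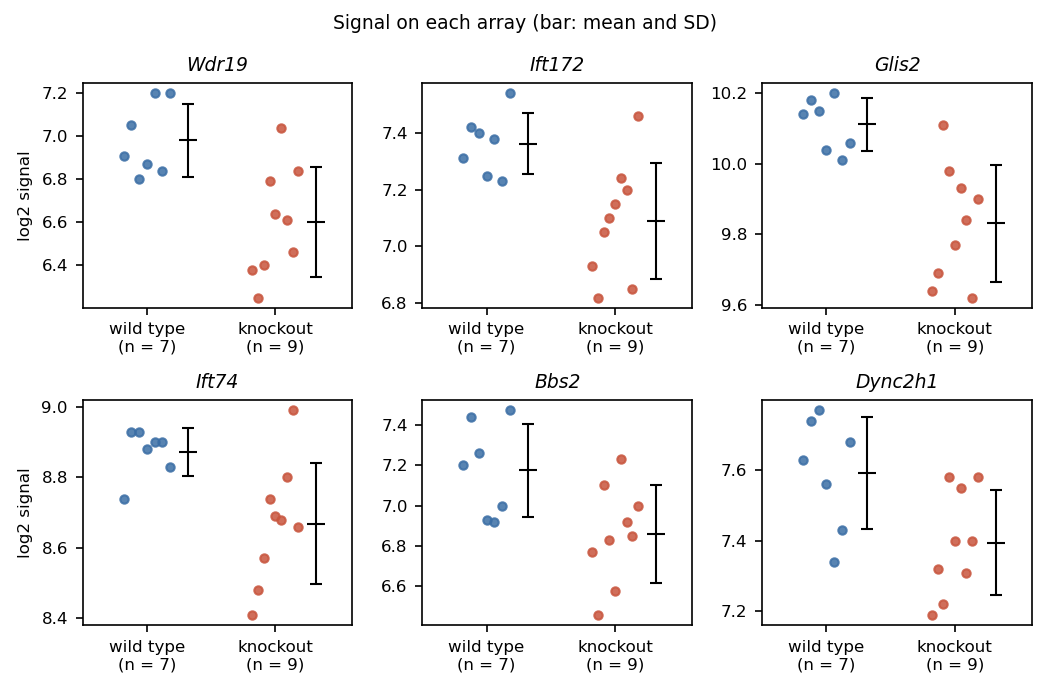
log2 signal on each array (points; vertical axis) in wild type (7 arrays) and knockout (9 arrays) for the 3 genes that fell and for Ift74, Bbs2 and Dync2h1, the 3 with the smallest p among those not called; black bars are the mean and SD. The groups overlap in every panel.

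Of the 6 BBSome genes, 0 were called and 5 had a negative difference, with a median of -0.20. Bbs2, a subunit of the complex mutated in Bardet-Biedl syndrome, had log2 signals of 6.92, 7.20 and 7.47 (lowest, median, highest) in wild type and 6.46, 6.85 and 7.23 in knockout. The difference was -0.31 (SE 0.116, 95% interval -0.56 to -0.07; limma adjusted p = 0.0692), with 5 of the 9 knockout arrays below every wild-type array. Without knockout array 3-4, the highest of its group, the limma adjusted p was 0.0331, within a range of 0.0331 to 0.833 over all alternatives run.

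Bbs4, which links the BBSome to pericentriolar proteins, had a difference of -0.25 on its brightest probe set (95% interval -0.50 to 0; limma adjusted p = 0.176), and 4 of the 7 wild-type arrays were above every knockout array. Bbs5, which binds membrane lipids, had -0.21 (limma adjusted p = 0.195), and Bbs7, close to Bbs2 in structure, -0.19 (limma adjusted p = 0.183). For Bbs5 and for Bbs7, 6 of the 9 knockout arrays were below every wild-type array. Bbs9 had -0.15 and Bbs1 0.13, and neither was called.

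The 5 transition zone genes held the least precise values of the list, and 0 were called. Cep290, a large protein that ties the axoneme to the membrane, was dim, with log2 signals of 3.93 to 6.13 in wild type and 3.15 to 6.36 in knockout, and its difference was -0.30 (95% interval -1.09 to 0.48). Tmem67, the membrane protein meckelin, was the dimmest gene, with log2 signals of 3.12 to 4.91 in wild type and 2.82 to 5.84 in knockout. Its lowest values were near the floor of 2.78. Its difference was 0.28 (95% interval -0.44 to 0.99), the highest difference in the list. Ahi1, mutated in Joubert syndrome, had -0.26 and was below the wild-type mean on 8 of 9 knockout arrays (limma adjusted p = 0.27). Iqcb1, which encodes nephrocystin-5, had -0.24 (limma adjusted p = 0.244), with 6 of 9 knockout arrays below every wild-type array. Nphp4, which encodes nephrocystin-4, had 0.08 (95% interval -0.28 to 0.44).

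None of the 3 genes of the inversin compartment and of cystic kidney models was called, and all 3 had a negative difference. Invs, the inversin gene, had -0.16 (95% interval -0.37 to 0.05). Nek8, a kinase of the same compartment mutated in the jck cystic mouse, had -0.10 (95% interval -0.39 to 0.19). Cys1, which encodes the ciliary membrane protein cystin lost in the cpk cystic mouse, had -0.24 (95% interval -0.52 to 0.04) and was below the wild-type mean on 8 of 9 knockout arrays.

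Glis2, a zinc finger transcription factor mutated in nephronophthisis, had the smallest p of the list. Its log2 signal was 10.01, 10.14 and 10.20 on the lowest, median and highest wild-type array and 9.62, 9.84 and 10.11 on the knockout arrays. Of the 9 knockout arrays, 8 were below every wild-type array, and array 2-4 lay among the wild-type values. The means were 10.11 ± 0.07 (SD, n = 7) and 9.83 ± 0.17 (SD, n = 9), a difference of -0.28 (SE 0.069, 95% interval -0.42 to -0.13; 1.21-fold lower; limma adjusted p = 0.00683; exact two-sided permutation p = 0.00184). The call was kept when any 1 array was left out, and was lost with median centring (0.0509), with the deposited scaling (0.827), in males alone (0.136) and in females alone (0.0833), all limma adjusted p. The related factor Glis3, whose loss also gives cystic kidneys in mice, had a difference of 0.04 (95% interval -0.22 to 0.29).

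Other probe sets of the same genes gave a second reading. Of 24 further probe sets 16 were bright enough to test, in 10 genes, and 13 of the 16 were negative. When every probe set was tested, 2 of the 16 were called lower and 0 higher. Over all genes that fit called 1349 of 23193 probe sets lower and 1567 higher. The further probe set of Wdr19 had a difference of -0.50 (limma adjusted p = 0.0388). A further probe set of Bbs4, a gene not called on its brightest probe set, had -0.34 (limma adjusted p = 0.0389, exact two-sided permutation p = 0.0042). The further probe set of Glis2 had -0.20 and was not called (limma adjusted p = 0.189). Ift172 has 1 probe set, and its limma adjusted p was 0.0571 in this larger family of tests. Probes of the brightest sets of Ift81, Ift122 and Bbs4, whose names end in _s_at, can match more than 1 transcript.

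The genes did not differ in level evenly over the knockout arrays. The mean log2 signal of the 32 genes was 7.22 to 7.33 on wild-type arrays and 7.06 to 7.30 on knockout arrays (7.29 ± 0.04, SD, n = 7, and 7.16 ± 0.10, SD, n = 9). Knockout arrays 3-2, 3-3 and 3-4 were at 7.28 to 7.30, inside the wild-type range, and the other 6 at 7.06 to 7.14, below it. These 3 arrays share the first number in their labels and were singled out after their values were seen. Their mean proximal tubule level was 10.36 to 10.51 against 9.72 to 10.60 on the other 6, and their macrophage level 8.62 to 8.71 against 8.65 to 9.29. The part of these marker levels in the cilium gene values was not tested.

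**Figure D3:**
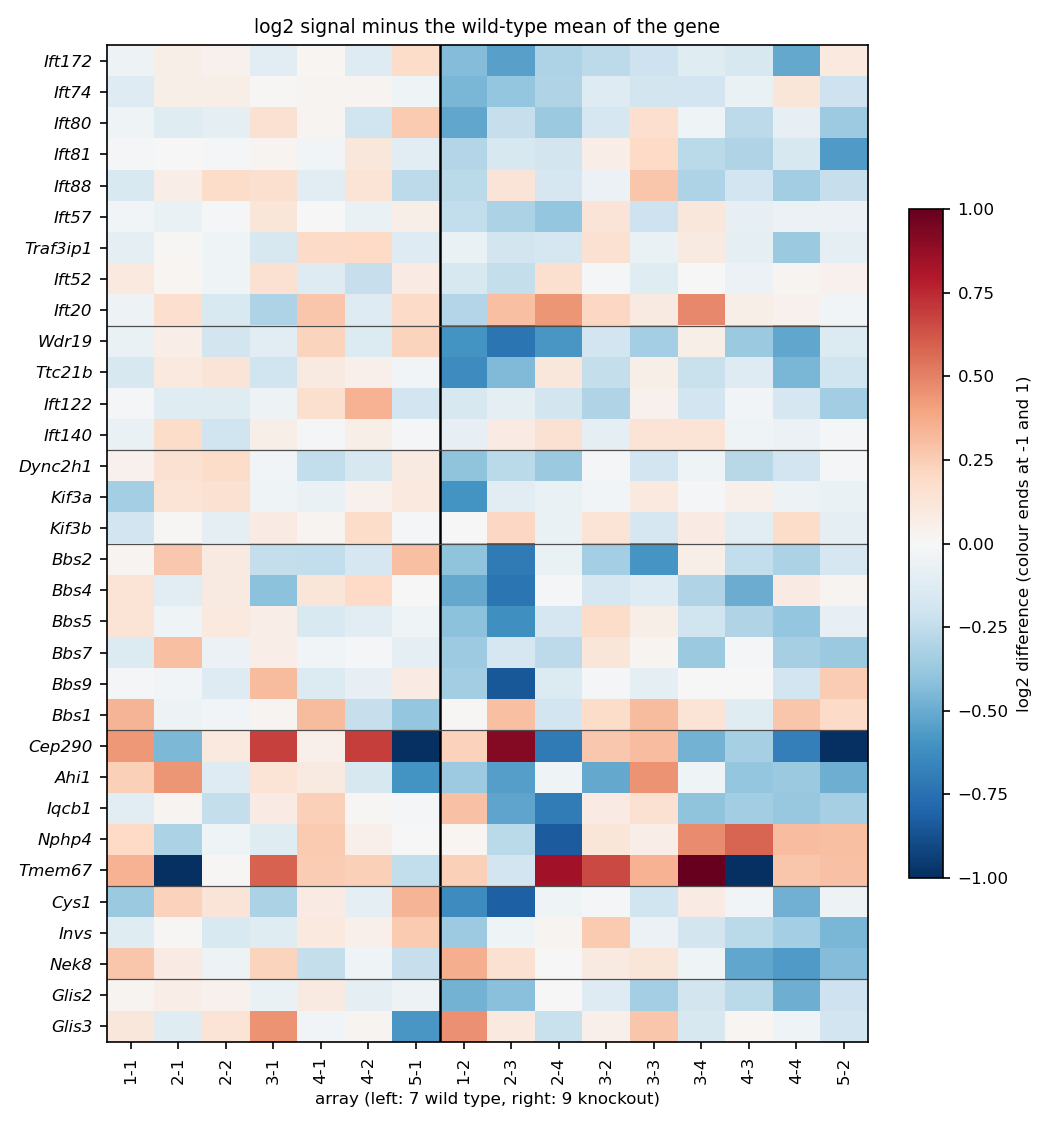
log2 signal minus the wild-type mean of each gene (colour; blue lower, red higher, with the colour scale ending at -1 and 1) for the 32 genes (vertical axis, by role) on each array (horizontal axis, 7 wild type at left and 9 knockout at right). Knockout arrays 1-2 and 2-3, with the lowest mean of the list at 7.06, are blue over most rows, and arrays 3-2 to 3-4 are paler.

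Levels of other cell types moved with genotype in the same libraries. Endothelial markers were lower, 4 of 6 called, with mean log2 signals of 9.08 to 9.41 in wild type and 8.75 to 9.02 in knockout. Of 7 tested distal tubule and thick limb markers 2 were lower, Egf at -1.91 and Slc12a3 at -0.37. The other 5 were not called, at -0.20 to 0.22, and the mean log2 signal of the 7 was 10.17 to 10.45 in wild type and 9.68 to 10.09 in knockout. Of 7 collecting duct markers 2 were lower and 1 higher, and of 6 stromal markers 3 were higher. Of 4 podocyte markers 1 was lower, Nphs1 (nephrin, of the filtration slit), at -0.53 with no overlap (limma adjusted p = 0.000281), and the mean log2 signal of the 4 was 8.84 to 9.09 in wild type and 8.72 to 8.94 in knockout. The 6 markers of dividing cells, which take their cilia down to divide, were not called. All 6 had a positive difference, of 0.15 to 0.27. Their mean log2 signal was 7.98 to 8.48 in wild type and 7.58 to 8.79 in knockout, with knockout array 1-2 the lowest. Markers of multiciliated cells were near the floor: of 7 on the array 6 were too dim to test, Foxj1 among them, with group means of 2.78 to 4.41, and Ccdc39 had a difference of -0.39 (limma adjusted p = 0.396). The part of these cell types in the values of the cilium genes was not tested.

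**Figure D4:**
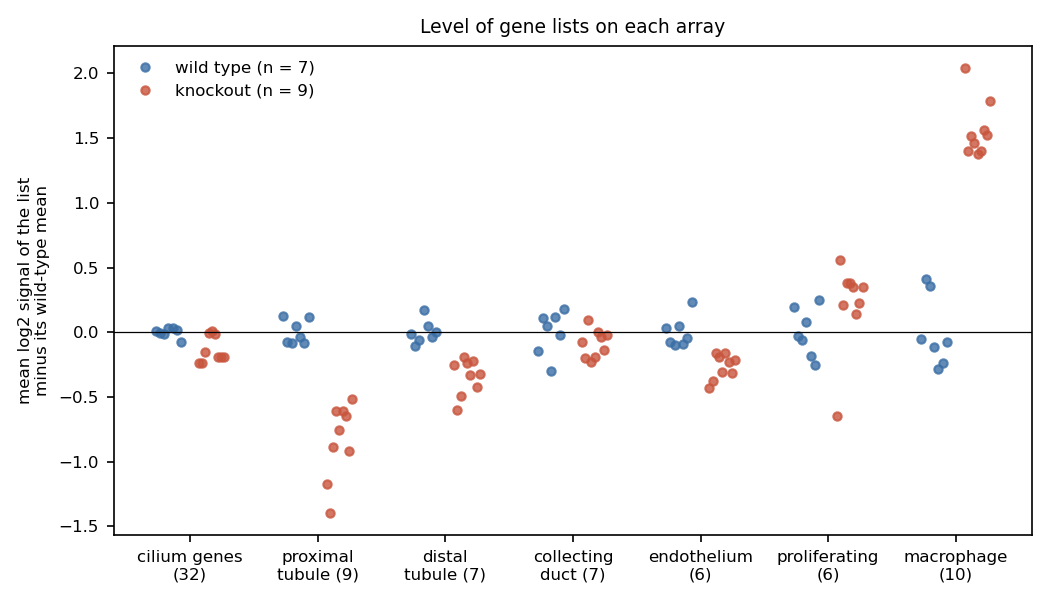
Mean log2 signal of each gene list minus its wild-type mean (vertical axis) on every array (points; 7 wild type, 9 knockout). The cilium genes spread over 7.06 to 7.30 in knockout against a wild-type range of 7.22 to 7.33. The macrophage, proximal tubule, distal tubule and endothelium lists of the 2 genotypes stand apart. In the distal tubule list 2 of the 7 genes were called lower, and Egf had by far the largest difference (-1.91).

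The genes that fell also followed each other across arrays. The log2 signals of Ift172 and Wdr19 had a Pearson correlation of 0.871 over the 16 arrays and 0.77 after the genotype means were removed, those of Ift172 and Glis2 0.745 and 0.516, and those of Wdr19 and Glis2 0.711 and 0.427. The median over the 496 pairs of cilium genes was 0.126 after removal of the genotype means, against 0.00992 for pairs of all genes tested. By that measure the pairs ran from 0.786, for Ift172 and Cys1, to -0.741, for Ift172 and the dim Cep290. All such pairs share the same arrays and their normalization. Among all genes tested, those most like Ift172 over the 16 arrays were Ppox (0.938), Acot4 (0.914) and Dync2li1 (0.91), a light intermediate chain of dynein-2. For Wdr19 they were Pdzk1ip1 (0.929), Acot4 (0.927) and Rab11fip3 (0.914), and for Glis2 they were Smad6 (0.914), Miga2 (0.906) and Mcrip2 (0.89).

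The promoters of Ift172 and Wdr19 are shown because these IFT genes fell and followed each other most closely of the 3. Each is the RefSeq window of 250 bases before to 50 after the transcription start in GRCm38.p6, written 5′ to 3′ on the gene's strand. Ift172 lies at chr5:31291065-31291364 on the minus strand and Wdr19 at chr5:65199446-65199745 on the plus strand. Capitals mark GTTGCC, a 6-base part of the X-box, the motif of the RFX factors that drive many cilium genes. Ift172 holds it once and Wdr19 has no match to it or to its reverse complement.
Ift172: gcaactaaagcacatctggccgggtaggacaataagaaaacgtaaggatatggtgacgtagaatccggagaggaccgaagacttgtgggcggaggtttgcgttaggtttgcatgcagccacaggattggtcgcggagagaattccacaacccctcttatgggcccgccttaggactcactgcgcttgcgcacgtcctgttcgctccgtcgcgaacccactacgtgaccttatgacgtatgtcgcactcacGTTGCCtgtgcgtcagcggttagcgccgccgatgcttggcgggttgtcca
Wdr19: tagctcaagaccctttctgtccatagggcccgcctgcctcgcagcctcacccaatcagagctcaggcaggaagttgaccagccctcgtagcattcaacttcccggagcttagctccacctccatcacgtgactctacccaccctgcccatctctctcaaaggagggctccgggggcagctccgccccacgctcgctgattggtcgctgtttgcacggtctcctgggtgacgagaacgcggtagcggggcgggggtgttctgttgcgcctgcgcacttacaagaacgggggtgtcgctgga

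A promoter window was found for 30 of the 37 genes. GTTGCC on either strand was in the window of 13 of these 30 genes (43.3%), against 14.1% of all 27025 genes in the same table. The fuller 2-part motif, GTNNCC followed after 0 to 3 bases by NGNAAC, on either strand and free to overlap GTTGCC, was in 7 of the 30 (23.3%) against 5.94% of all genes. The 7 include Bbs1 (difference 0.13) and Nphp4 (0.08), whose matches are not shown. Matches are written in capitals and their flanks in lower case, on the gene's strand. The Ift74 match is to the reverse complement of the motif. Of the motif's instances, 5 are shown, all in genes of the BBSome, IFT-B and the transition zone with a negative difference. They lie at chr3:36613489-36613518 (Bbs7, minus strand), chr9:59353464-59353493 (Bbs4, minus), chr16:49699226-49699254 (Ift57, plus), chr4:94614478-94614506 (Ift74, plus) and chr10:20952560-20952589 (Ahi1, plus).
Bbs7: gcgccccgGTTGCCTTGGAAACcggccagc
Bbs4: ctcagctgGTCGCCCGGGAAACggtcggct
Ift57: gccctgcgGTTGCCTGGTAACggtgggga
Ift74: cggtgaccGTTGCTAGGATACgcggcgtc
Ahi1: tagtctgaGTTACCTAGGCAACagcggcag

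The difference between genotypes was then set beside the motifs. Its median difference was -0.14 over 12 tested genes with GTTGCC and -0.20 over 15 without it. It was -0.19 over 7 genes with the 2-part motif and -0.15 over 20 without it. The difference was negative in 5 of the 7 and in 16 of the 20. These medians describe the genes, and a match is a match of letters only.

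Both sexes were in both genotypes, and no gene of the list passed the test of a difference between them. For the interaction of genotype with sex, 0 of the 32 genes and 0 of all genes tested reached an adjusted p under 0.05 (limma), while 6 of the 32 and 1354 of all genes did so at an unadjusted p. The difference was negative in both sexes for 21 of the 32 genes, in males for 26 and in females for 24. Wdr19 was at -0.32 in males and -0.47 in females, Ift172 at -0.16 and -0.38, and Glis2 at -0.26 and -0.31. The 6 genes at an unadjusted p were Cep290 (-1.16 in males, 0.56 in females), Bbs4 (-0.01 and -0.52), Bbs2 (-0.06 and -0.55), Cys1 (0.07 and -0.52), Glis3 (-0.24 and 0.29) and Kif3a (0.13 and -0.28), each with a limma adjusted p of 0.456. With 3 wild-type males these values are less precise than the pooled ones.

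**Figure D5:**
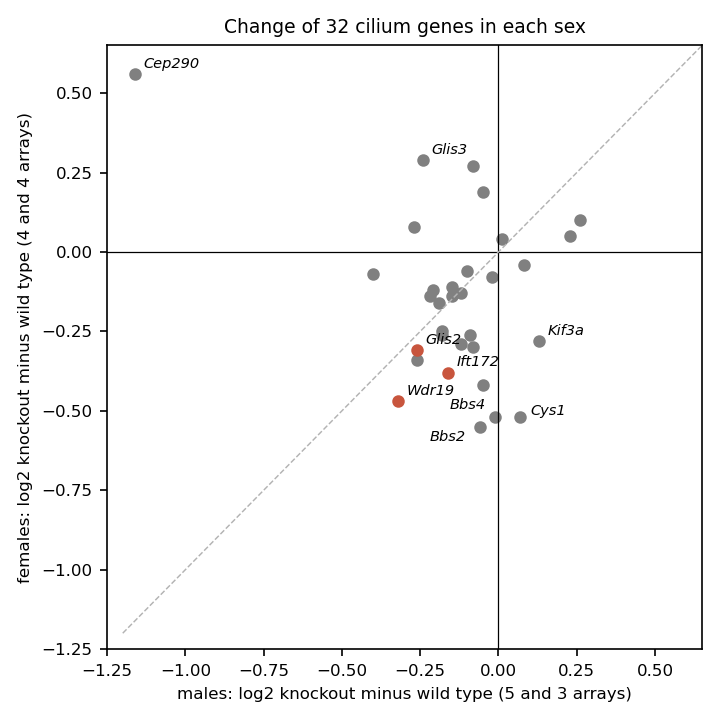
Difference in log2 signal (knockout minus wild type) of the 32 genes in males (horizontal axis; 5 knockout, 3 wild type) and in females (vertical axis; 4 and 4); the dashed line marks equal values. Genes that fell in the pooled test are red, 21 of the 32 genes lie below 0 on both axes, and Cep290 lies farthest from the line.

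A wider list of 84 cilium genes, none of them in the first list, was set beside it. The wider list was chosen with earlier results of these data known, and 80 of its genes were tested. Of these 7 fell and 0 rose at a limma adjusted p under 0.05 (8.75% lower, beside 8.34% of all genes), 53 had a negative difference and 27 a positive one (66.2% negative), and the median was -0.09. Kif17 and Rfx2 were too dim to test. By role, 2 of 8 BBSome and associated genes, 2 of 16 centriole and basal body genes, 1 of 8 IFT-B, 1 of 11 transition zone and 1 of 10 Hedgehog genes fell.

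Ttc8, a BBSome subunit, had log2 signals of 8.24, 8.53 and 8.61 (lowest, median, highest) in wild type and 7.98, 8.14 and 8.28 in knockout. It was 1.24-fold lower (log2 -0.31, SE 0.0701; limma adjusted p = 0.0035), and 8 of 9 knockout arrays were below every wild-type array. Rab3ip, which activates the Rab8 GTPase at the ciliary base, was at -0.20 on the log2 scale (limma adjusted p = 0.0308), with all 9 knockout arrays below the wild-type mean. The IFT-B GTPase Ift22 was at -0.23 (limma adjusted p = 0.0332) and the transition zone gene Cc2d2a at -0.21 (limma adjusted p = 0.0365). The last 3 calls are near the threshold. That of Rab3ip was lost without any single one of wild-type arrays 1-1, 2-1 and 5-1 or knockout arrays 2-3, 3-2, 3-3 and 4-4 (limma adjusted p 0.0506 to 0.0645). That of Ift22 was lost without any of wild-type arrays 3-1, 4-1, 4-2 and 5-1 or knockout arrays 1-2, 2-4, 4-3, 4-4 and 5-2 (limma adjusted p 0.0511 to 0.0705). That of Cc2d2a was lost without any of wild-type arrays 1-1, 2-1, 3-1, 4-1, 4-2 and 5-1 or knockout arrays 2-3, 2-4, 3-4, 4-3 and 4-4 (limma adjusted p 0.0515 to 0.086).

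Hhip, which binds and blocks Hedgehog ligands, had the largest difference of the wider list that passed. Its log2 signal was 5.07, 6.04 and 6.19 in wild type and 4.19, 4.99 and 5.63 in knockout, a difference of -0.82 (SE 0.22, 1.77-fold lower; limma adjusted p = 0.012), and all 9 knockout arrays were below the wild-type mean. Ccp110, which caps centrioles and holds back cilium growth, was at -0.49 (1.41-fold lower; limma adjusted p = 0.0179), with 7 of 9 knockout arrays below every wild-type array. Its limma adjusted p was 0.0528 without wild-type arrays 2-1 and 2-2, within a range of 0.00341 to 0.525 over all alternatives run. Sdccag8, a centrosomal protein mutated in a ciliopathy that affects kidney and retina, was at -0.33 (limma adjusted p = 0.0184). For Sdccag8 the mean over its probe sets gave 0.10 (limma adjusted p = 0.714), and without wild-type array 3-1 the brightest probe set gave a limma adjusted p of 0.05, at the threshold; the range over all alternatives run was 0.0012 to 0.818.

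Close to the threshold and not called were Adcy6, an adenylyl cyclase found in cilia (-0.16; limma adjusted p = 0.0542), the IFT-B gene Cluap1 (-0.22; 0.0624), and the dynein-2 chains Wdr34 (-0.27; 0.0638) and Dync2li1 (-0.25; 0.0645). With the first number of the label as a replicate block, Cluap1, Wdr34 and Dync2li1 were called (limma adjusted p 0.018, 0.0444 and 0.0172), and Adcy6 was not. In the main test the genes of the dominant and recessive polycystic kidney diseases were not called, Pkd1 at -0.01 (limma adjusted p = 0.955) and Pkhd1 at -0.23 (limma adjusted p = 0.0664).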

How the data were processed

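Per the submitters' processing notes, the authors processed the arrays with GCOS 1.3; the deposited values are linear signal intensities (0.0256 to 14300), 1 column per array, and no source used here states their scaling. The 64 control probe sets of 45101 were left out, the rest quantile normalized (limma 3.58.1, R 4.3.3), floored at the 20th percentile (a signal of 6.88) and put on the log2 scale from these deposited intensities. Of the annotated probe sets 34945 name 1 gene, 932 several, and 9160 are not listed; 34741 gene IDs matched the RefSeq table of GRCm38.p6.

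The brightest probe set stood for a gene, tested if above the 40th percentile on at least 7 arrays. limma (lmFit, eBayes with trend) compared 9 knockout with 7 wild-type arrays, with Benjamini-Hochberg adjustment over all 12508 genes; an exact two-sided permutation test was run on single genes. On simulated data the fit recovered 16% of genes changed by 0.25 on the log2 scale, 58% at 0.5 and 94% at 1. The simulation made 139 calls, 5 of them false, against 2211 calls in the data. With fewer calls a gene needed a smaller unadjusted p, so the simulated shares can be too low for the data. Arrays are separate animals per the labels; litters are not given for each. The number of arrays limits the precision.

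The members and lists were chosen with earlier results of these data known. Named were Aqp11, Pkd1 and Pkhd1, each called gene, the 10 members and 4 wider genes next by p, members with another called probe set, and the 3 genes most like each called member; other members are given in brief. Alternatives covered centring, scaling, floor, filter, probe set choice, sex, a block, brightness and each array left out. Some genes of the wider list are not reported here.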

Additional observations from a re-analysis of the deposited data

How the results depend on the processing

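Over the alternatives run, the median difference of the 32 genes was -0.21 to -0.12. In place of 3 genes of the list, 1 was called lower with median centring in place of quantiles, 0 with the deposited scaling, 5 with array brightness as a term, and 0 in males alone and in females alone (fewer arrays); leaving out 1 array gave 1 to 4. For the wider list the number lower was 4 with median centring, 0 with the deposited scaling, 11 with the mean of probe sets, 11 with the first sample number as a replicate block, 0 in males and 0 in females, and 4 to 8 with 1 array left out. The number higher was 1 with the mean of probe sets, 1 with the block, 1 with brightness and 1 in males, and 0 to 1 with 1 array left out. With the mean of probe sets Ift81 was at 0 (limma adjusted p = 0.993), and the sign of Sdccag8 turned (0.1). The mean for Ift81 took in a probe set too dim to test (0.37), beside tested ones at -0.18 and -0.19. Fewer arrays entered in each sex, and the cause of these changes was not tested. Over all genes the deposited scaling called 441 (156 lower and 285 higher, or 35.4% lower against 47.2%), males alone 1415 and females alone 676. Of all 12508 genes, 819 were lower with median centring, 1223 with brightness and 1274 with the block, in place of 1043. With the mean of probe sets 908 of 11895 were lower, and with 1 array left out 868 to 1055 of 12508. Ift172 lost its call in 18 of 32 alternatives (limma adjusted p 0.0112 to 0.876), Wdr19 in 4 (0.00609 to 0.576) and Glis2 in 4 (0.00169 to 0.827; 0.0509 with median centring). Aqp11 was -5.01 to -4.88 with 1 array left out. An alternative chosen after seeing the data left out wild-type arrays 2-1 and 2-2, which had the highest macrophage level of their group; the calls of Ift172 (limma adjusted p = 0.126), Ccp110 (0.0528) and Rab3ip (0.0701) were then lost, and Adcy6 was called (0.0441).

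The labels do not say what the first sample number marks. After the genotype means were removed, 6 of 16 arrays correlated best with an array of the other genotype that shares their number, where 3.3 would do so if numbers were unrelated to the values, and the mean correlations within numbers were 0.00859 to 0.321. Since not every pair was above 0.1, the number was not taken to pair the arrays; whether it marks a litter was not tested. As a replicate block it called 4 of the 32 genes lower, adding Ift74 (limma adjusted p = 0.027), and 2654 genes in all against 2211; of the wider list it added, among others, Cluap1 (0.018), Wdr34 (0.0444) and Dync2li1 (0.0172). The 95% interval reached 0.21 to either side for the median gene of the list and 0.79 for the dim Cep290. Differences of this size or smaller were often not detectable. In simulated data 16% of genes changed by 0.25 and 58% of those changed by 0.5 were called. That simulation made 139 calls, so a call needed a smaller unadjusted p than in the data with 2211. Its shares can therefore be too low for these data.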
